A study of Mus musculus with 10 samples.

Results

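The vascular endothelial growth factor (VEGF) and angiopoietin genes were followed in left ventricular RNA of control mice and of a mouse model of HFpEF, heart failure in which ejection fraction is preserved. They comprise 5 ligand genes (Vegfa, Vegfb, Vegfc, Angpt1 and Angpt2) and 5 receptor genes (Kdr, Flt1, Flt4, Tek and Tie1), chosen by gene symbol, and are 10 of the 29564 genes in the deposited tables. All 10 were among the 13292 genes that passed the filter on low counts. The control group held 5 non-failing mice on standard chow with no aortic constriction, and the HFD+mTAC group held 5 mice given a high-fat diet (HFD) and moderate transverse aortic constriction (mTAC), a narrowing of the aorta that raises the pressure the ventricle works against. All 10 mice were wild type (WT), labelled C57BL6 (C57BL/6J in the study's methods) and, per those methods, male. Both groups carry the label vehicle, and for the HFD+mTAC mice the labels describe daily dosing with a mixture of DMSO, PEG-300 and water (10 mL/kg) over 6 to 9 weeks. HFD and mTAC were combined in every mouse of the group, so the part of each cannot be told apart here. Ages are not in the labels.

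VEGF ligands are secreted proteins that act on receptor tyrosine kinases of endothelial cells, the cells that line vessels. VEGF-A binds Kdr (VEGF receptor 2), the main receptor for endothelial growth and permeability, and Flt1 (VEGF receptor 1), which binds VEGF-A tightly, signals weakly and also binds VEGF-B, while VEGF-C acts through Flt4 (VEGF receptor 3), best known in lymphatic vessels. Angiopoietin-1, made by cells around vessels, activates the receptor Tek (Tie2) and keeps vessels quiet, whereas angiopoietin-2, stored in endothelial cells, can oppose it, and Tie1 is a related receptor that modulates Tek. In the heart, cardiomyocytes are a main source of VEGF-A and VEGF-B, and endothelial cells carry the receptors.

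The start regions of 3 receptor genes and of the VEGF ligand gene Vegfa are shown because of correlations over mice given further on. These were positive between receptors and negative between Vegfa and the receptors, but none passed the adjustment for the number of pairs. Each line gives the 250 bases before the RefSeq start on GRCm38.p6, 5′ to 3′ on the gene's strand, and capitals mark each GGAAG or its reverse complement CTTCC, a core bound by ETS factors, a family that includes regulators of endothelial genes.
Flt1, chr5:147726012-147726261, minus strand: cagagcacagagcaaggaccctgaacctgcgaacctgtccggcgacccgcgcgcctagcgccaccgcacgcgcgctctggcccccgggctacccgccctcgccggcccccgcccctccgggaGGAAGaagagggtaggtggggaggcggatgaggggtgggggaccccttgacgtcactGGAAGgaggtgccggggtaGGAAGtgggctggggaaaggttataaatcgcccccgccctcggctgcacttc
Kdr, chr5:75978456-75978705, minus strand: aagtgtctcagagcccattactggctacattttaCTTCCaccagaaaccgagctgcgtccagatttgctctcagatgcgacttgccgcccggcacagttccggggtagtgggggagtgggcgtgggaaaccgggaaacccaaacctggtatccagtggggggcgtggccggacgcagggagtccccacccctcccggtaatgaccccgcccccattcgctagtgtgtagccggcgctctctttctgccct
Tek, chr4:94739039-94739288, plus strand: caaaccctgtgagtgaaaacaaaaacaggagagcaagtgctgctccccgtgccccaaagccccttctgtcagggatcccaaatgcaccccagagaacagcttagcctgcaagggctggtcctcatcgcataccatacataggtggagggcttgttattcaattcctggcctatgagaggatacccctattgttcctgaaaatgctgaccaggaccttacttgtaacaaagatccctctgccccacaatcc
Vegfa, chr17:46032378-46032627, minus strand: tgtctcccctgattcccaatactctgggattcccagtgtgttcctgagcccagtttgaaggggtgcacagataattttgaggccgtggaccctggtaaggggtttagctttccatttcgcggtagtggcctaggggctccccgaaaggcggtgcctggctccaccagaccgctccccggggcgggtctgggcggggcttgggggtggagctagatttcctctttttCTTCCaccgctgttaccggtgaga
The motif was present 3 times in the Flt1 window, once in the Kdr window, once in the Vegfa window and not in the Tek window. The windows of Tie1 (chr4:118489850-118490099) and Flt4 (chr11:49609429-49609678) were counted but are not printed, since 212 and 250 of their 250 bases lie within GENCODE transcripts of these genes, against 3 bases of the Kdr window and 0 of the other windows printed. The Tie1 window held 6 matches and the Flt4 window 1. Of all 32851 promoter windows of the same length, 64.1% held the motif at least once, 10.7% held 3 or more matches and 0.344% held 6 or more. A shorter ETS core, GGAA, which every GGAAG also contains, was in 5 of 5 receptor windows against 93.4% of all windows. Of the hypoxia response core only the form ACGTG was searched. It was in 0 of 5 receptor windows against 16.6% of all, and it was not in the Vegfa window shown. A second Vegfa start in RefSeq (window chr17:46025164-46025413, inside the gene) held it once. The GATA motif AGATAA was in 0 of 5 receptor windows against 9.99% of all, and the Vegfa window shown held it once. All motifs were searched on both strands, within the windows of 250 bases only. Of the 10 genes, 8 had an entry.

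Gene coordinates are on GRCm38, from GENCODE. Vegfa spans chr17:46016993-46032369, Vegfb chr19:6982473-6987651, Vegfc chr8:54077606-54187096, Angpt1 chr15:42424723-42676977 and Angpt2 chr8:18690263-18741562. Kdr spans chr5:75932827-75978458 and Flt1 chr5:147561604-147726011 on the same chromosome, and Tek spans chr4:94739289-94874976 and Tie1 chr4:118471191-118490061, also on a shared chromosome. Flt4 spans chr11:49609263-49652739. The RNA-seq values are per gene, summed over its transcripts, and Vegfa has the most of them, with 13 annotated transcripts of which 8 are coding.

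The libraries held 34.2 to 53.7 M estimated counts per mouse, of which 12.6 to 21.1 M were on the genes tested and 43.8 to 52.7% on mitochondrial genes. Neither total nor the mitochondrial share differed between the groups (two-sided exact permutation tests, p = 0.444, 0.198 and 0.246). The first principal component held 24.9% of the variance and split mice within both groups. Markers of ventricular cardiomyocytes were abundant in all mice, and the atrial markers Myl7 and Sln reached no more than 0.83 and 0.051 TPM (a level corrected for transcript length) in any mouse. The other atrial markers listed, Nppa and Myl4, passed the filter. Nppa was at 194 to 371 CPM (counts scaled to a common library total) in controls and 119.6 to 335.8 CPM in HFD+mTAC mice. Myl4 was at 2.26 to 5.04 and 2.15 to 2.78 CPM. The summed level of the 8 ventricular cardiomyocyte markers was 63260 to 69010 CPM in controls and 52740 to 60360 CPM in HFD+mTAC mice, without overlap. The log2 difference was -0.22 (exact permutation test, p = 0.00794, the smallest p that 5 against 5 allows, and p = 0.119 adjusted over the 15 marker lists tested). All 8 had a log2 fold change below 0 and 0 passed edgeR's test. None of the 8 was at 0 in any mouse. The 10 endothelial markers summed to 1695 to 2191 CPM in controls and 1615 to 2620 CPM in HFD+mTAC mice (p = 0.825, exact permutation test). Fewer cells of a type and less RNA per cell cannot be told apart in such bulk tissue, and the part of cell composition in the values below was not tested.

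No ligand or receptor gene passed the test between HFD+mTAC and control mice. The log2 fold changes ran from -0.32 for Angpt2 to 0.13 for Tie1, with 3 genes above 0 (Flt1, Flt4 and Tie1) and 7 below. Adjusted p-values were 0.713 to 0.951 (edgeR quasi-likelihood test, Benjamini-Hochberg over the 13292 genes), and 0 of 10 had an unadjusted p under 0.05, against 8.27% of all genes tested. Calls were rare in the whole table too, with 8 genes or 0.0602% called. DESeq2, limma on log2(TPM + 1) and edgeR with transcript lengths as an offset also called 0 of the 10 genes, against 0.903%, 0.00752% and 0.00752% of all genes. In 0 of 10 genes did the groups separate without overlap in CPM, against 1.96% of all genes. The 95% confidence intervals excluded a 2-fold change in either direction for all 10 genes and a 1.5-fold change for 8, Angpt1 and Angpt2 being the exceptions. The median absolute log2 fold change was 0.09 over the 10 genes and 0.12 over all genes tested.

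**Figure D1:**
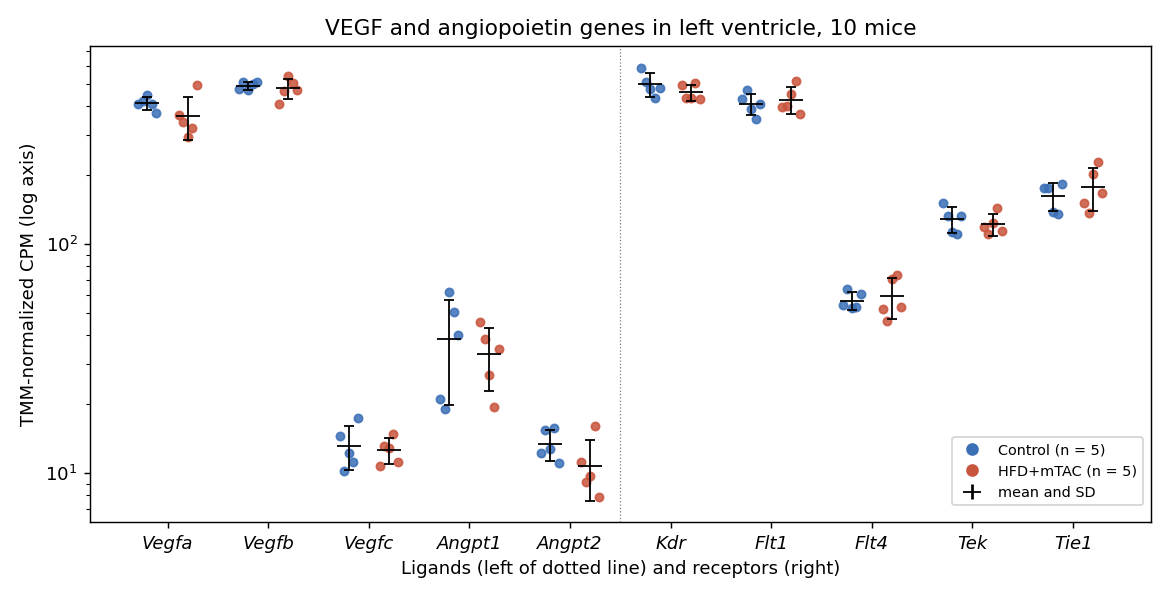
TMM-normalized CPM (log axis) of the 5 ligand genes and 5 receptor genes in each mouse, Control in blue and HFD+mTAC in red, with the mean and SD of 5 mice. The groups overlap for every gene, and 4 of 5 HFD+mTAC mice lie below all controls for Vegfa while the remaining mouse, at 494 CPM, lies above all of them.

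Among the ligands, Vegfa was the gene whose HFD+mTAC mice left the control range most often. Its level was 409.3, 423.5, 448.7, 409.1 and 375.1 CPM in the control mice labelled TT-583 to TT-587. In the HFD+mTAC mice labelled TT-588 to TT-592 it was 367.5, 341.6, 293.2, 323.2 and 494.4 CPM. Thus 4 of 5 HFD+mTAC mice were below all controls and mouse TT-592 was above all controls, so no mouse of this group fell within the control range. The means were 413 ± 26.7 and 364 ± 77.8 CPM (SD over 5 mice), and the log2 fold change was -0.18 (SE 0.13, interval -0.46 to 0.09, edgeR adjusted p = 0.772). Without mouse TT-592 the log2 fold change was -0.32, with an adjusted p of 0.40.

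Vegfb, the other VEGF ligand of cardiomyocytes, was the most even of the 10 genes between mice in CPM. It measured 475.0, 513.8, 470.2, 500.2 and 509.8 CPM in controls and 411.8, 465.9, 544.3, 504.6 and 472.8 CPM in HFD+mTAC mice. The within-group coefficient of variation was 7.70%, the lowest of the set, and the log2 fold change was -0.04 (interval -0.22 to 0.14, edgeR adjusted p = 0.938). Vegfc, the lymphatic growth factor, was far lower. It measured 14.51, 10.25, 12.3, 11.21 and 17.39 CPM in controls and 10.76, 13.13, 12.85, 14.82 and 11.24 CPM in HFD+mTAC mice, all 5 of which lay within the control range (log2 fold change -0.06, interval -0.40 to 0.28, edgeR adjusted p = 0.951).

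In CPM the angiopoietin genes varied most between mice of the same group, whereas in TPM the within-group coefficient of variation of Vegfa (47.8%) exceeded that of Angpt1 (44.7%). Angpt1 was 20.99, 19.03, 61.82, 50.55 and 40.05 CPM in controls, so that 2 control mice were at about the level of the lowest HFD+mTAC mouse and 3 were above 40 CPM. In HFD+mTAC mice it was 45.56, 38.48, 26.93, 19.47 and 34.82 CPM, all within the control range, and the within-group coefficient of variation was 41.8%. The log2 fold change of -0.22 therefore had the widest interval of the set, from -0.91 to 0.48 (SE 0.32, edgeR adjusted p = 0.918). Angpt2, the context-dependent antagonist of Tek, was 12.25, 15.4, 12.69, 15.79 and 11.02 CPM in controls and 11.15, 9.14, 9.69, 16.12 and 7.86 CPM in HFD+mTAC mice. Here 3 HFD+mTAC mice were below all controls and mouse TT-591 was above all of them. Its log2 fold change of -0.32 (SE 0.19, interval -0.73 to 0.09, edgeR adjusted p = 0.713) was the farthest from 0 of the 10 genes. Without mouse TT-591 it was -0.51 (edgeR adjusted p = 0.420).

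The VEGF receptors were close between groups. Kdr measured 591.5, 511.7, 477.2, 435.1 and 484.1 CPM in controls and 498.4, 435.0, 435.2, 504.9 and 432.9 CPM in HFD+mTAC mice, with the highest value in a control mouse and 3 of 5 HFD+mTAC mice within the control range. Its log2 fold change was -0.12 (interval -0.32 to 0.09, edgeR adjusted p = 0.805). Flt1 measured 430.5, 470.7, 390.3, 352.3 and 409.8 CPM in controls and 397.5, 403.2, 455.0, 517.3 and 371.5 CPM in HFD+mTAC mice. Only mouse TT-591 left the control range of Flt1, and the log2 fold change was 0.06 (interval -0.17 to 0.30, edgeR adjusted p = 0.926). Flt4 measured 54.03, 63.56, 52.52, 53.23 and 60.35 CPM in controls and 52.29, 46.05, 70.55, 73.63 and 53.36 CPM in HFD+mTAC mice. The HFD+mTAC mice spread to both sides of the controls, 2 above and 2 below, with a log2 fold change of 0.06 (interval -0.22 to 0.34, edgeR adjusted p = 0.943).

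The Tie receptors were close as well. Tek, the angiopoietin receptor, measured 151.6, 132.3, 113.6, 110.9 and 133.3 CPM in controls and 119.1, 111.0, 123.3, 144.7 and 113.8 CPM in HFD+mTAC mice, all 5 within the control range. The log2 fold change was -0.07 (interval -0.30 to 0.16, edgeR adjusted p = 0.920). Tie1 measured 176.7, 176.2, 138.9, 136.1 and 183.6 CPM in controls and 151.0, 137.6, 202.3, 228.5 and 168.1 CPM in HFD+mTAC mice. Mice TT-590 and TT-591 exceeded all controls and the other 3 lay among them, for a log2 fold change of 0.13 (interval -0.18 to 0.44, edgeR adjusted p = 0.883). Without mouse TT-591 it was 0.02.

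**Figure D2:**
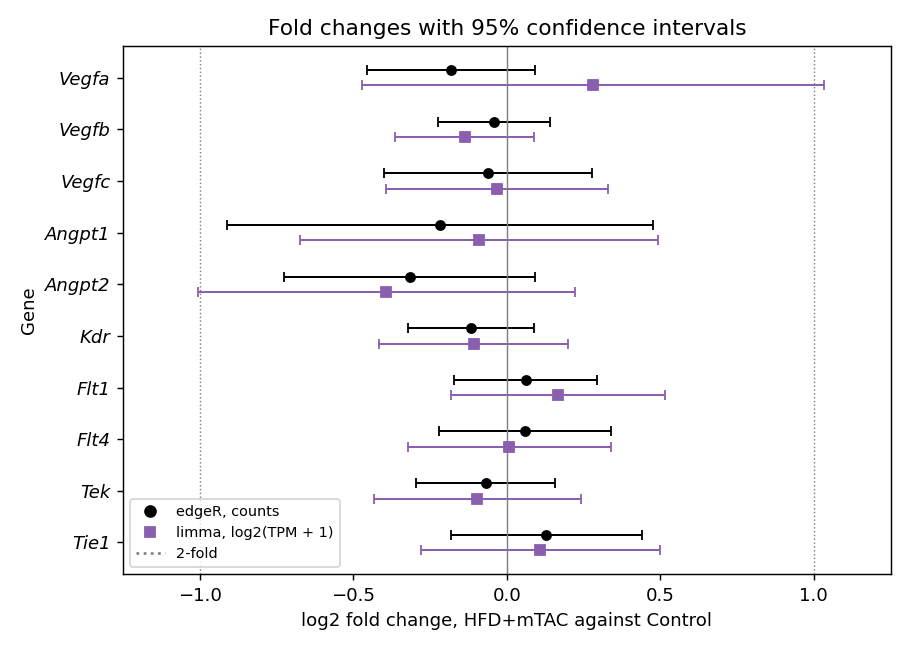
Log2 fold change of HFD+mTAC against Control (x axis) for each gene (y axis), with 95% confidence intervals, from counts (edgeR, black) and from log2(TPM + 1) (limma, violet). TPM was rescaled in each mouse to the same sum over the genes tested, and dotted lines mark a 2-fold change. All intervals cross 0, and Vegfa is at -0.18 on counts and 0.28 on rescaled TPM.

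For Vegfa the direction depended on whether transcript length was taken into account. TPM divides the count by an average effective length, which the deposited tables give per gene and mouse and which depends on the transcripts that the quantifier assigned reads to and on its bias corrections. The Vegfa length was 3856, 2579, 4253, 2022 and 4333 bases in controls and 1716, 2529, 2125, 4568 and 2037 bases in HFD+mTAC mice. In 4 mice (3 controls and mouse TT-591) the length exceeded the longest annotated coding transcript of 3451 bases, and in the other 6 it was 2579 bases or less. Vegfa in TPM was 18.46, 29.36, 15.51, 28.48 and 11.69 in controls and 33.03, 17.51, 18.42, 9.78 and 41.66 in HFD+mTAC mice, with the lowest value in mouse TT-591, which had the longest length. For the limma fit on log2(TPM + 1), TPM was first rescaled in each mouse to the same sum over the genes tested. The log2 fold change of Vegfa in this fit was 0.28 (interval -0.47 to 1.03, limma adjusted p = 0.911), the sign opposite to that on counts. Flt1 and Tie1 were at 0.17 and 0.11 in this fit, while their mean TPM as deposited was 5.55 and 4.86 in controls and 5.47 and 4.73 in HFD+mTAC mice. The fit averages log2 values after rescaling, whereas these are arithmetic means without it. The part of the rescaling in the sign was not separated from that of the averaging. On the rescaled values the intervals of Vegfa and Angpt2 reached beyond a 2-fold change. In TPM the groups overlapped for all 10 genes, whereas 0.692% of all genes were without overlap. The sign differed between these fits in 20.3% of all genes tested, and the shift between them was as large as that of Vegfa in 8.49%. The length itself did not pass the test between groups, with a log2 difference of -0.41 (interval -1.01 to 0.19, limma adjusted p = 0.604), and across all genes tested 0 passed and 7.06% had an unadjusted p under 0.05.

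**Figure D3:**
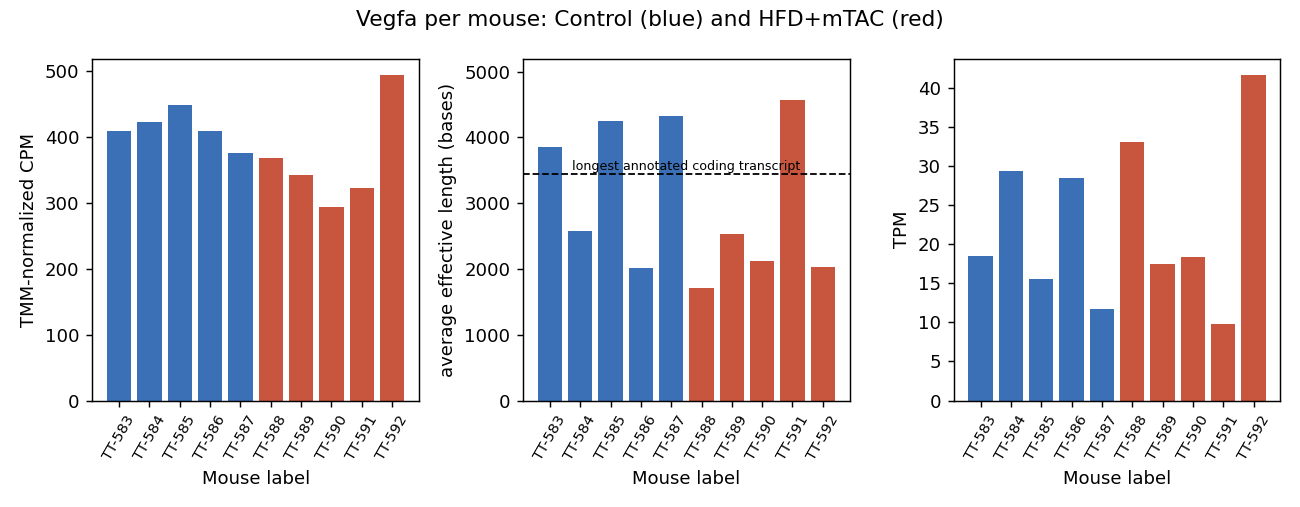
Vegfa in each of the 10 mice, as TMM-normalized CPM, average effective length in bases and TPM, with bars starting at 0 and the mouse label on the x axis. The dashed line is the longest annotated coding transcript (3451 bases), which 4 mice exceed, and mouse TT-591 has the longest value (4568 bases) and the lowest TPM (9.78).

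Angpt2 had the other strongly variable length, 2075 to 5131 bases, a ratio of 2.47 between the highest and the lowest mouse against 2.66 for Vegfa and 1.22 to 1.46 for the other 8 genes. Over all genes tested the median of this ratio was 1.42, and 27.0% had a ratio above 2. The lengths of Angpt1 averaged 17760 bases, 4.17 times its longest annotated transcript (coding, 4260 bases), at percentile 99.0 of all genes tested. For Kdr, Flt1 and Flt4 the ratio was 1.85, 1.69 and 1.81. Over all genes tested, with the longest annotated transcript of any type, its median was 0.96. Of the 10 lengths, that of Vegfb alone had an unadjusted p under 0.05, at a log2 difference of 0.17 (interval 0.0018 to 0.34, limma adjusted p = 0.588).

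Levels were ordered per length. In TPM over all 10 mice, Vegfb stood first at 68.7 ± 15.7 TPM (SD, n = 10) and Vegfa second at 22.4 ± 10.3 TPM, and each exceeded the next gene in 10 of 10 mice. The receptors followed with Kdr at 6.72 ± 1.79, Flt1 at 5.51 ± 1.32, Tie1 at 4.80 ± 1.21, Tek at 3.04 ± 0.85 and Flt4 at 0.78 ± 0.19 TPM. Kdr exceeded Flt1 in 9 mice and Flt1 exceeded Tie1 in 8, and for both pairs the mean log2 difference was about the size of its SD (0.28 ± 0.29 and 0.21 ± 0.19). Vegfc (0.57 ± 0.14 TPM), Angpt2 (0.56 ± 0.34 TPM) and Angpt1 (0.31 ± 0.13 TPM) were lowest, and Vegfc exceeded Angpt2 in only 6 of 10 mice, so these neighbours did not differ beyond their spread. With CPM per kilobase of the longest annotated coding transcript in place of TPM, a scale added after the data were seen, the first 7 genes kept their order and the last became Angpt1 (8.40 ± 3.38), Vegfc (5.25 ± 0.90) and Angpt2 (3.40 ± 0.81 CPM per kilobase).

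The balance of the angiopoietins therefore depended on the length used. The Angpt2 to Angpt1 ratio in TPM was 3.87, 5.91, 0.72, 1.36 and 1.40 in controls and 1.48, 0.81, 1.85, 3.81 and 1.03 in HFD+mTAC mice, above 1 in 8 of 10 mice. Per kilobase of annotated transcript it was 0.25 to 0.97 in controls and 0.27 to 0.99 in HFD+mTAC mice, above 1 in 0 of 10. In TPM 2 controls lay above every HFD+mTAC mouse and the ranges otherwise overlapped, and per kilobase the groups covered nearly the same range. The Flt1 to Kdr ratio in TPM was 0.66 to 0.82 in controls and 0.69 to 1.30 in HFD+mTAC mice, with mouse TT-590 alone above 1. The Vegfa to Vegfb ratio in TPM was below 1 in every mouse, at 0.19 to 0.46 in controls and 0.16 to 0.62 in HFD+mTAC mice.

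Correlations between receptor genes over the mice were positive but did not pass the adjustment for the number of pairs. Pearson's r of log2 CPM, centred within group, had a median of 0.79 over the 10 receptor pairs (range 0.21 to 0.90, n = 10 mice) and of -0.12 over the other 35 pairs. The highest was Flt4 with Tie1 (r = 0.90, rho = 0.85, permutation p = 0.0030 and 0.0041, Benjamini-Hochberg adjusted over 45 pairs p = 0.0522 and 0.0613, and r = 0.83 without the 2 mice farthest from the median). Tek with Tie1 gave r = 0.84 and rho = 0.83 (permutation p = 0.0029 and 0.0017, adjusted p = 0.0522 and 0.0613, r = 0.85 without 2 mice). Kdr was the loosest of the receptors, at r = 0.21 with Flt4 and 0.46 with Tie1 but 0.83 with Tek. Of the ligands, Angpt1 and Vegfa had a negative r with every receptor, Angpt1 from -0.60 with Kdr to -0.83 with Tek and Vegfa from -0.12 with Kdr to -0.54 with Flt1. The values of Vegfa had a permutation p of 0.168 with Flt1 to 0.761 with Kdr (adjusted over 45 pairs, p = 0.346 to 0.778). For Angpt1 the lowest adjusted p was 0.0522, with Flt1 (r = -0.82, rho = -0.73, permutation p = 0.0035 and 0.0144, r = -0.65 without 2 mice). Vegfb had a positive r with Flt4 (r = 0.73, rho = 0.82, permutation p = 0.0620 and 0.0113, adjusted p = 0.233 and 0.0722, r = 0.80 without 2 mice). None of the 45 pairs passed the adjustment for r. Total counts enter every CPM, and the labels do not say which libraries were prepared together. These values therefore describe co-variation among libraries.

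**Figure D4:**
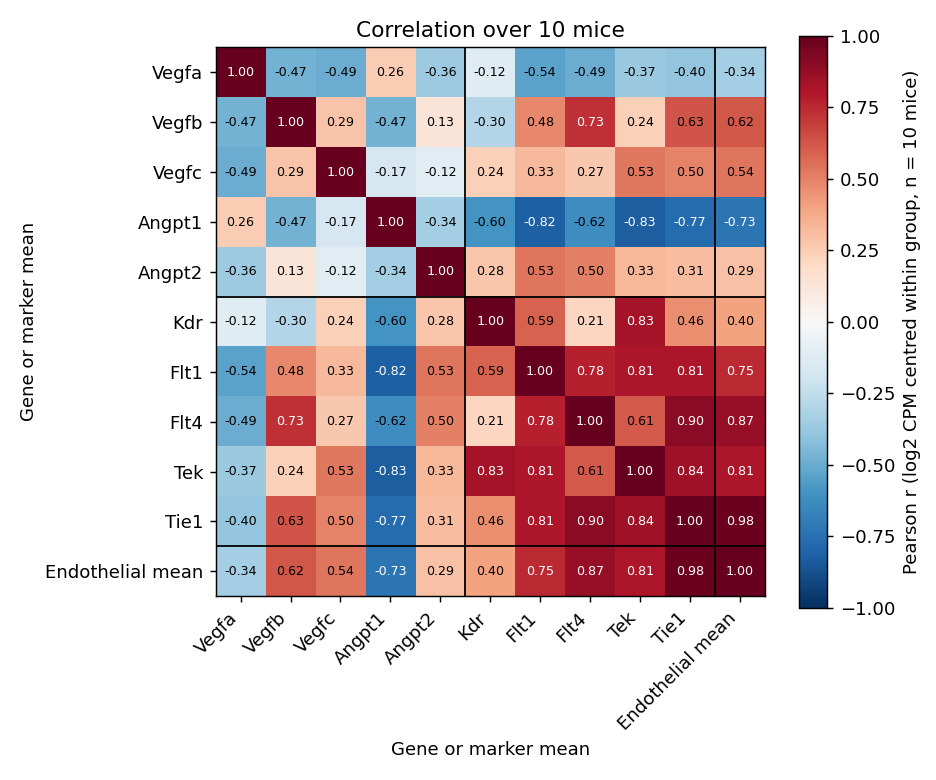
Pearson's r over 10 mice between the ligand genes, the receptor genes and the mean of 10 endothelial markers, in log2 CPM centred within group, from blue (-1) to red (1). The receptors form a red block with a median of 0.79, Angpt1 and Vegfa are blue against every receptor, and Tie1 has r = 0.98 with the endothelial mean.

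The receptors followed the endothelial markers to different degrees. The mean log2 CPM of the 10 markers (Pecam1, Cdh5, Emcn, Cldn5, Egfl7, Esam, Ecscr, Robo4, Sox18 and Eng) correlated with Tie1 at r = 0.98 and rho = 0.94 (permutation p = 0.00033 and 0.00092, adjusted over 13 relations p = 0.0035 and 0.0040, r = 0.97 without 2 mice). Flt4 gave r = 0.87 and rho = 0.90 (permutation p = 0.0043 and 0.00061, adjusted p = 0.0188 and 0.0040, r = 0.73 without 2 mice), and Tek gave r = 0.81 and rho = 0.76 (permutation p = 0.0074 and 0.0096, adjusted p = 0.0242 and 0.0314, r = 0.70 without 2 mice). Flt1 (r = 0.75, rho = 0.70, permutation p = 0.0269 and 0.0510, r = 0.64 without 2 mice) and Angpt1 (r = -0.73, rho = -0.67, permutation p = 0.0228 and 0.0299, r = -0.69 without 2 mice) had an adjusted p of 0.0583 for r. Kdr, the most abundant receptor, followed the markers least among the receptors (r = 0.40, rho = 0.41, permutation p = 0.256 and 0.266, r = 0.19 without 2 mice). The endothelial marker mean also followed the first principal component of all genes (r = -0.97, rho = -0.95, permutation p = 0.00054 and 0.00065, adjusted p = 0.0035 and 0.0040, r = -0.98 without 2 mice), so the endothelial signal moved with the main difference among libraries. It had r = -0.09 and rho = -0.10 with the ventricular cardiomyocyte marker sum (permutation p = 0.837 and 0.812, r = 0.33 without 2 mice). The part of cell content in these relations was not tested. The share of all genes with an r as high as that of Tie1, Flt4 or Tek is not given here. The r values of the receptors were not tested against each other.

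Relative to the endothelial marker mean in CPM, Tie1 separated the groups, a difference that did not hold without the marker Cldn5 or in TPM. The difference of Tie1 from the mean was 0.30, 0.27, 0.28, 0.21 and 0.19 in controls and 0.40, 0.37, 0.48, 0.41 and 0.35 in HFD+mTAC mice (log2 CPM), and the groups did not overlap. The group means differed by 0.16 (0.25 ± 0.05 and 0.40 ± 0.05, SD, n = 5 each, two-sided exact permutation test, p = 0.00794, the smallest 5 against 5 allows), and 0.978% of all genes tested were without overlap on this scale. All 10 genes were compared in this way and the p-values are not adjusted for that number. Tie1 was the only gene with an exact p under 0.05, the next being Angpt2 (-0.29, p = 0.206). The result rested in part on Cldn5, an endothelial tight junction gene at 134 CPM in controls and 91.4 CPM in HFD+mTAC mice (log2 fold change -0.55, edgeR adjusted p = 0.605). Without Cldn5 the difference was 0.11 and the groups overlapped (p = 0.0556, exact permutation test), whereas leaving out each of the other 9 markers kept them apart. On log2(TPM + 1) the difference was 0.13 and the groups overlapped (p = 0.206, exact permutation test). The marker mean itself differed by -0.04 between the groups (p = 0.770, exact permutation test).

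**Figure D5:**
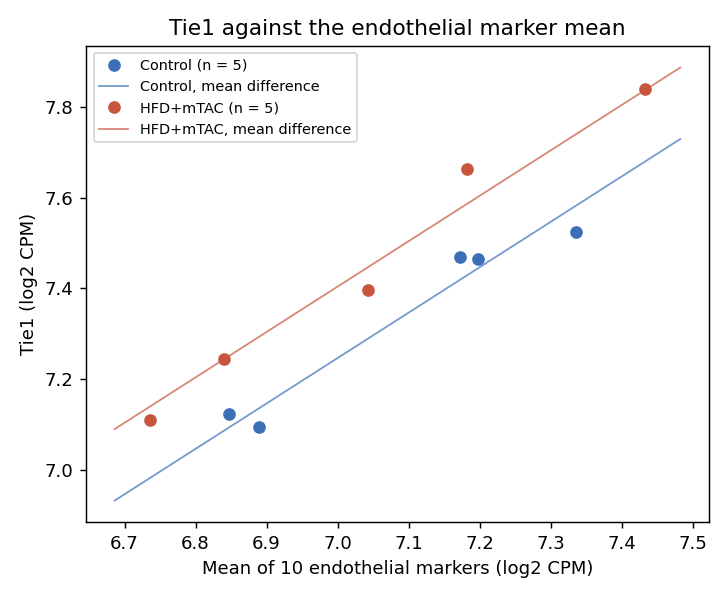
Tie1 (log2 CPM, y axis) against the mean of 10 endothelial markers (log2 CPM, x axis) in each mouse, with lines of slope 1 at each group's mean difference. The HFD+mTAC mice lie higher by 0.16 on average at a given marker level, while both groups cover much the same range of marker means.

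The genes most like each member over the 10 mice were listed as a description, by r among 10086 genes of at least 5 CPM. Tie1 ran closest to Cd9 (r = 0.98), Cebpg (0.98) and the endothelial adhesion gene Pecam1 (0.98), and Flt4 to Ltbp4 (0.98), Maf1 (0.96) and Arsa (0.96). Tek ran closest to Sdc1 (0.98), Glo1 (0.97) and Arrb1 (0.96), Flt1 to Colec11 (0.97), Ppp4r2 (0.95) and Arhgef40 (0.95), and Kdr to Megf9 (0.95), Adcyap1r1 (0.95) and Msl1 (0.94). For the VEGF ligands the leading gene was Mast2 with Vegfa (0.92, then Itfg2 at 0.90 and Mapk8ip3 at 0.89), Cops7b with Vegfb (0.99, with Rpl29 at 0.97) and Tcf15 with Vegfc (0.95, then Ddx52 at 0.93 and Klhl6 at 0.93). Tcf15 is a transcription factor of heart endothelial cells. Angpt1 ran closest to Lmbr1 (0.97), Strip2 (0.97) and Rcsd1 (0.97), and Angpt2 to Tmod2 (0.94), Fam212b (0.91) and Klf3 (0.88).

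Other genes of the pathway, in 8 lists with 87 genes of which 85 were tested, also held 0 calls by edgeR, against 0.0602% of all genes, while 9 of 85 (10.6%) had an unadjusted p under 0.05, near the 8.27% of all genes, and 1 of 85 (1.18%) had groups without overlap, against 1.96% of all genes. Among the 6 co-receptors, other ligands and processing genes, 3 were above 0 and 3 below, with a median log2 fold change of 0.02 beside 0.0016 over all genes tested. The leading members were Figf (VEGF-D, a ligand of Flt4) at 5.63 ± 2.22 CPM in controls and 6.38 ± 1.32 CPM in HFD+mTAC mice (SD, n = 5 each, edgeR adjusted p = 0.910) and Nrp2, a VEGF co-receptor, at 140 ± 12.6 and 149 ± 22.0 CPM (edgeR adjusted p = 0.891). Of the 4 Tie pathway modulators (2 above 0 and 2 below, median -0.04), the matrix protein gene Svep1 had a log2 fold change of 0.33 (edgeR adjusted p = 0.525) and the Tek ligand gene Angpt4, under 1 CPM in both groups, of -0.49 (edgeR adjusted p = 0.845).

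Of the 20 genes that signal downstream of VEGF receptor 2, 9 were above 0 and 11 below, with a median log2 fold change of -0.0049. The phospholipase gene Plcg1 was 109 ± 9.32 CPM in controls and 128 ± 13.3 CPM in HFD+mTAC mice (SD, n = 5 each, log2 fold change 0.23, edgeR adjusted p = 0.511), and the kinase gene Prkcb, under 1 CPM, had a log2 fold change of 0.80 (edgeR adjusted p = 0.585). Among the 9 oxygen sensing genes, which regulate Vegfa (6 above 0 and 3 below, median 0.08), Hif1a had a log2 fold change of 0.23 (edgeR adjusted p = 0.713) and the prolyl hydroxylase gene Egln3 of -0.28 (edgeR adjusted p = 0.716). Of 12 other hypoxia targets tested, 7 were above 0 and 5 below, with a median of 0.01. The nearest to the threshold of all 85 was Ddit4, an inhibitor of mTOR complex 1 induced by hypoxia and other stresses, at 37.5 ± 9.37 CPM in controls and 99.8 ± 33.1 CPM in HFD+mTAC mice (SD, n = 5 each). Its groups did not overlap, and its log2 fold change was 1.41 (SE 0.23, interval 0.92 to 1.90, edgeR adjusted p = 0.0509). Ero1l, an oxidase of the endoplasmic reticulum in the same list, had a log2 fold change of -0.28 (edgeR adjusted p = 0.567).

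The endothelial lists likewise had members on both sides of 0. Of 11 sprouting and tip cell genes tested, 3 were above 0 and 8 below (median -0.03), led by Plvap, a component of endothelial diaphragms, at -0.50 (edgeR adjusted p = 0.541) and the basement membrane gene Nid2 at 0.23 (edgeR adjusted p = 0.643). Of 9 endothelial Notch genes, 6 were above 0 and 3 below (median 0.09), with the Notch target Hes1 at -0.45 (edgeR adjusted p = 0.555) and the receptor Notch4 at 0.30 (edgeR adjusted p = 0.567). Of 14 endothelial transcription factors, 5 were above 0 and 9 below (median -0.06), with the ETS factor Erg at 0.35 (edgeR adjusted p = 0.498) and Mef2c at -0.14 (edgeR adjusted p = 0.723), all as log2 fold changes.

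Markers of the other cells that could carry these genes did not separate by group. Summed levels differed on the log2 scale by 0.25 for capillary (3 genes, exact permutation test, p = 0.333), 0.02 for pericyte (6 of 8 genes tested, p = 0.825), -0.38 for smooth muscle (4 genes, p = 0.286), -0.11 for lymphatic (6 genes, p = 0.191) and -0.01 for fibroblast markers (7 genes, p = 0.905), all by the same exact test. Angpt1 and Vegfc can come from such perivascular and stromal cells, and Flt4 from lymphatic vessels. For endocardial (2 genes), arterial (4) and venous markers (3) the log2 differences were -0.19, 0.06 and 0.11 (exact permutation test, p = 0.540, 0.603 and 0.579). For atrial (2 of 4 genes tested), macrophage (5), red cell (5), Schwann (2) and lymphocyte markers (1 of 2) they were -0.63, 0.05, -0.20, -0.32 and 0.30 (exact permutation test, p = 0.0952, 0.698, 0.770, 0.0952 and 0.294). Such sums are weighted toward abundant genes. In controls Prox1 averaged 82.1 CPM of a lymphatic sum of 174 CPM, and Nppa 270 CPM of an atrial sum of 273 CPM. Adipocyte and mesothelial markers did not pass the filter on low counts, and the highest value of any was 0.42 TPM, for Cidec.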

How the data were processed

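Left ventricular polyA RNA of 10 mice was sequenced, and groups were taken from the sample labels. Per the study's methods, the authors trimmed reads with fastp, quantified them with Salmon 1.6.0 (also in the submitters' processing notes) against GENCODE transcripts of GRCm38 with sequence, GC and position bias correction, and summed them per gene with tximport. The notes list the build as hg38, a human build, and labels and methods differ on read length and layout. The authors deposited expected counts without normalization (20.1% not whole), TPM values, and the average effective length in bases that each TPM divides by. TPM columns sum to 94.8 to 96.6% of their nominal total.

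Symbols were matched to GENCODE M21 (27812 directly, 868 by an older symbol, 884 not matched). Expected counts were rounded, and protein-coding genes outside the mitochondrial genome with at least 1 count in 90% of mice were tested with edgeR 4.0.16 in R 4.3.3 (TMM, quasi-likelihood, adjusted p under 0.05, common dispersion 0.0422). TPM, rescaled to the same sum in each mouse over the genes tested, and log2 lengths centred per mouse were tested with limma 3.58.1. DESeq2 1.42.0 was an alternative. TMM-normalized CPM were used per mouse. For single values a two-sided exact permutation test used all 252 arrangements of 5 against 5, and correlations with 100000 permutations within groups. On simulated counts edgeR called 81 of 100 genes changed by a log2 of 1, 31 of 100 changed by 0.5, and 9 unchanged genes. DESeq2 called 89, 51 and 28, and limma on simulated lengths called 74, 52 and 8. Libraries of the same group differed by a chi-square per degree of freedom of at least 13.3, so none was the same library sequenced again. Pairs were not equally close, from 13.3 for TT-588 with TT-589 to 55.7 for TT-588 with TT-591. The labels do not say whether litters or cages were shared, so p-values measure the spread between these mice, and depth sets the counting error only. Promoter sequences are those of RefSeq on GRCm38.p6. The members and lists were chosen with earlier results of these data known. All 10 members are named, with the 2 genes of smallest p per pathway list and the 3 genes most correlated with each member, except 1 gene that is not reported here. Cldn5 was named after its values were seen. The alternatives were other normalizations, filters, biotypes, length offset, robust test, pseudocount, scaling to endothelial markers and omission of each mouse.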

Additional observations from a re-analysis of the deposited data

Results flagged for a closer look

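The average effective length of Vegfa in HFD+mTAC mouse TT-591 was 4568 bases, whereas the other 4 mice of its group lay between 1716 and 2529 bases. Its gap to the nearest of them was 0.715 of the group's whole range, just above the critical value of 0.71 of Dixon's test for 5 samples. It was the only value singled out of 60 groups of values tested, and chance singles out about 1 in 20. Among controls, 3 mice had Vegfa lengths of 3856 to 4333 bases. The cause was not tested.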

How the results depend on the processing

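Over 210 refits of the 10 genes, 199 kept their direction and stayed above the threshold, with adjusted p-values of 0.40 or more in every fit across all genes. Vegfa reversed to 0.28 with limma on log2(TPM + 1), 0.28 with a pseudocount of 0.1 and 0.28 with lengths as an offset, where Flt4 was -0.0089. These settings divide by the deposited lengths, and the limma settings also rescale TPM to the same sum in each mouse. With 1 mouse left out, log2 fold changes ran from -0.32 to -0.12 for Vegfa, -0.091 to 0.0067 for Vegfb, -0.14 to 0.056 for Vegfc, -0.015 to 0.12 for Flt1, -0.032 to 0.13 for Flt4, -0.39 to 0.027 for Angpt1, -0.51 to -0.22 for Angpt2, 0.02 to 0.20 for Tie1, -0.16 to -0.05 for Kdr and -0.14 to -0.0014 for Tek. Tie1 relative to the endothelial marker mean was 0.16 (exact permutation test, p = 0.00794), 0.11 without Cldn5 and 0.13 on log2(TPM + 1). The median log2 ratio of Angpt2 to Angpt1 reversed to -1.51 per kilobase of annotated transcript, where 7 of 10 genes kept their rank. Genes called numbered 120 with DESeq2, 1 with limma (both pseudocounts) and 1 with lengths as an offset, against 8, and 1 to 9 with 1 mouse left out. The length difference of Flt1 ran from -0.084 to 0.043 with 1 mouse left out. No paired analysis was possible because the groups share no replicate numbers. For Angpt1 and Angpt2 a change of 1.5-fold was within the interval. The causes of the other shifts were not tested.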
